A study of Mus musculus with 6 samples.

Results

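The genes described here build and cap the actin filament of muscle and non-muscle cells. They were picked by gene symbol from the actin, tropomyosin and leiomodin families, with earlier results of these data known, and are the sarcomeric actins Acta1 and Actc1, the cytoplasmic actins Actb and Actg1, the tropomyosins Tpm1, Tpm2, Tpm3 and Tpm4, and the striated leiomodins Lmod2 and Lmod3. All 10 were among the 55536 genes counted and among the 22404 genes with enough counts to be tested. RNA was sequenced from satellite cells, the resident stem cells of skeletal muscle, isolated 5 days after the tibialis anterior muscle was injured with BaCl2, and kept for 48 h in high-serum medium. The 3 control samples came from Pax7CreErt2;Hira fl/+ mice, which the sample labels call WT, and the 3 cKO samples from Pax7CreErt2;Hira fl/fl mice. Hira encodes a chaperone of the histone variant H3.3, and the comparison asks how its loss alters the transcriptome of activated satellite cells. Both groups were adult male mice of C57BL/6J background that carried the tamoxifen-inducible Cre under Pax7, at least one floxed Hira allele, a tamoxifen diet and the injury, so the controls are not free of Cre or of recombination at Hira. Recombination is limited to cells that expressed Pax7 during the diet. Cells were sorted as CD34+ and ITGA7+ and against CD45, TER119 and SCA1. The study calls the samples independent RNA samples, but the number of mice behind each is not given in the sources used here, so the p-values measure the spread between these samples.

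Actin monomers assemble into thin filaments in the sarcomere and into stress fibres and the cell cortex elsewhere. The sarcomeric actins, which skeletal and heart muscle use, and the cytoplasmic actins of all cells are encoded by separate genes and differ by few amino acids. Tropomyosins are coiled coils that lie along the filament and, in the sarcomere, work with troponin to gate myosin. Leiomodins are muscle proteins related to tropomodulin that nucleate and lengthen the thin filament at its pointed end. Differentiating myoblasts are known to shift from cytoplasmic to sarcomeric actins as they build sarcomeres.

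The libraries held 47944477 to 63323577 counted reads. For Hira, the targeted gene, control replicates 1, 2 and 3 held 375, 348 and 341 counts and cKO replicates 1, 2 and 3 held 161, 293 and 272 (log2 ratio -0.43, SE 0.12, adjusted p = 0.0237), so the RNA was lower but present in cKO and lowest in cKO replicate 1. These counts cover all exons of the gene, not only the deleted part. Of 8 satellite cell markers, 6 were lower in cKO and 0 higher, against 6.46% and 9.38% of all genes tested. The number lower was 4 without control replicate 1, 2 or 3. It was 5 without cKO replicate 2 or 3 or with scaling by total counts alone. All 8 were detected in every sample (summed level 5047 to 5150 CPM in the controls and 4418 to 4801 CPM in cKO). Most of this sum was Des, with a mean of 3228 CPM in the controls and 2903 CPM in cKO. Pax7 was at 39.7 and 34.8 CPM, so the sum mainly follows Des. CPM are counts divided by the library size in 1e+06 reads, with library sizes scaled by the TMM factors of edgeR. The log2 ratio (log2 fold change) is that of cKO to control, SE is its standard error, and every adjusted p comes from the quasi-likelihood fit of edgeR, corrected by Benjamini-Hochberg over all genes tested.

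The cytoplasmic members and Tpm1 were higher in cKO, and 3 of the other muscle members were lower. With an adjusted p under 0.05, 8 of the 10 genes differed between groups, while 15.8% of all genes tested did. Higher in cKO were Actb, Actg1, Tpm1, Tpm3 and Tpm4, that is 5 of 10 against 9.38% of all genes. Lower were Actc1, Lmod2 and Lmod3, that is 3 of 10 against 6.46% of all genes. Acta1 and Tpm2 were not called. The changes were small, with a fold of cKO over control between 0.839 for Lmod3 and 1.16 for Tpm3. In 8 members the cKO range lay wholly above or below the control range, which held for 31.8% of all genes. With scaling by total counts alone it held for 7, since the groups then overlapped for Actc1. The median log2 ratio was 0.05 over the members and -0.0011 over all genes tested.

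**Figure D1:**
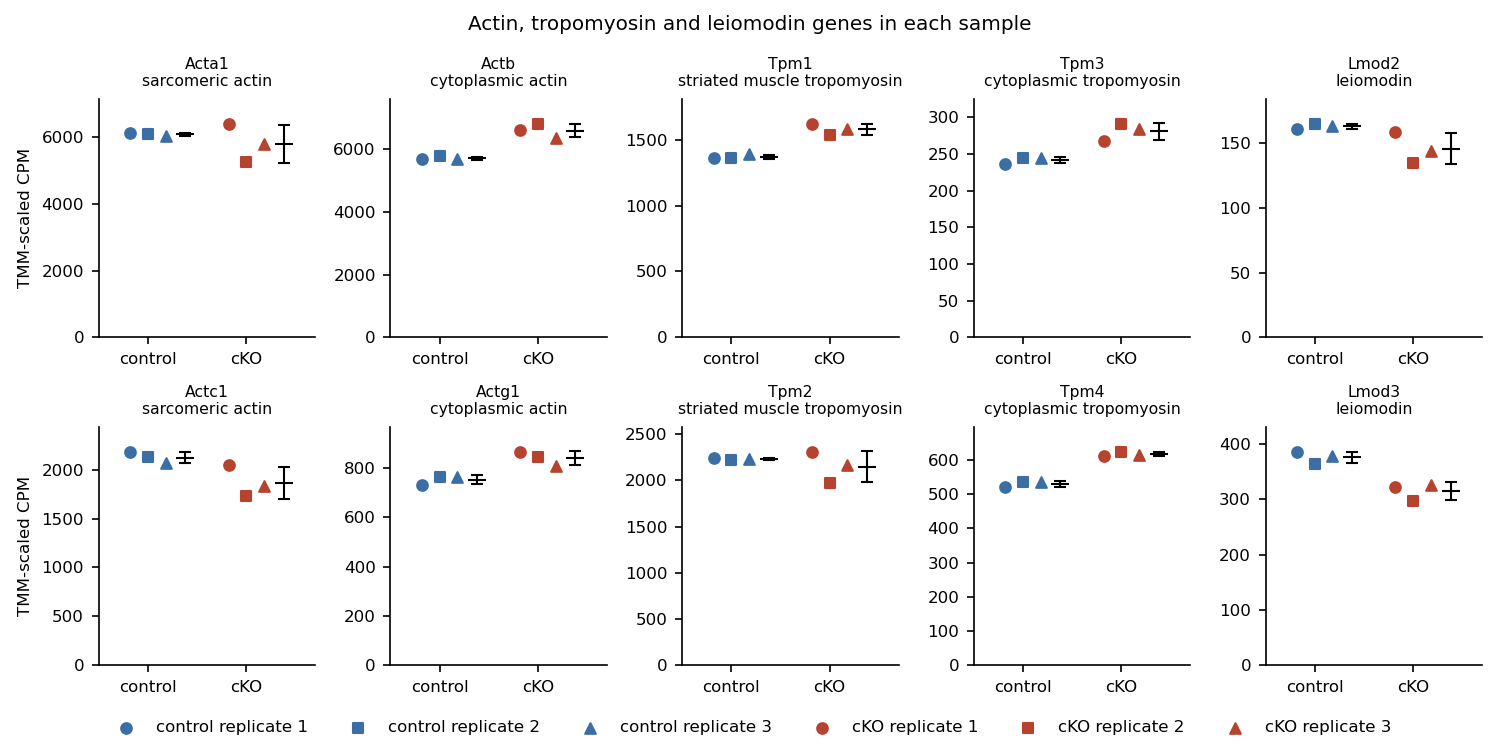
TMM-scaled CPM (vertical axes, from 0) of the 10 genes in the 3 control (blue) and 3 cKO samples (red), with marker shapes for replicates 1, 2 and 3 and the mean ± SD of each group in black. For Actb, Actg1, Tpm1, Tpm3 and Tpm4 the red points lie above the blue ones, for Actc1, Lmod2 and Lmod3 below, and for Acta1 and Tpm2 cKO replicate 1 lies above and cKO replicate 2 below the controls.

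Levels between genes were compared as CPM per kilobase of annotated exon. Acta1 was the highest member in control at 3962 ± 34.5 CPM per kb (SD, n = 3), followed by Actb at 2133 ± 20.2, Actc1 at 1314 ± 34.3 and Tpm2 at 768 ± 4.45 CPM per kb. Far below came Actg1 at 283 ± 6.92, Tpm4 at 241 ± 4.09, Tpm1 at 212 ± 2.37 and Lmod3 at 169.8 ± 4.85 CPM per kb. The lowest were Lmod2 at 82.5 ± 0.869 and Tpm3 at 39.8 ± 0.728 CPM per kb. In the counts as deposited the order was the same in cKO, and no neighbours in it had overlapping ranges in either group. Exons of all isoforms are counted in the length, which lowers the value for genes with many isoforms such as Tpm1 and Tpm3 (6485 and 6085 bp of exon), and the levels of Actg1, Tpm3 and Tpm4 leave out any of their reads that were counted on genes with copies of their sequence, described further on. The places of Actg1 and Tpm3 in the order can change when the counts of those copies are added.

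Acta1 encodes the alpha-actin of adult skeletal muscle (ENSMUSG00000031972, chromosome 8 of mm10, 123891769 to 123894751, reverse strand). It had 6134, 6095 and 6029 CPM in controls 1, 2 and 3 and 6384, 5245 and 5799 CPM in cKO replicates 1, 2 and 3. The groups overlapped, because cKO replicate 1 was above and the other cKO samples were below all controls. The log2 ratio was -0.07 (SE 0.05, 95% interval -0.18 to 0.043, adjusted p = 0.454). Without cKO replicate 1 the log2 ratio was -0.14 (adjusted p = 0.00887), and without cKO replicate 2 it was -0.0034 (adjusted p = 0.972).

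Actc1 encodes the alpha-actin of heart muscle, which developing and regenerating skeletal muscle also uses (ENSMUSG00000068614, chromosome 2, 114047282 to 114053548, reverse strand). Its CPM were 2181, 2128 and 2069.8 in the controls and 2045, 1727 and 1832 in cKO. No cKO sample reached the controls, with cKO replicate 1 close to the lowest control. The log2 ratio was -0.19 (SE 0.05, adjusted p = 0.0144), a level of 0.879 of control. The adjusted p was 0.0560 without control replicate 1, 0.0571 without control replicate 2 and 0.0584 without cKO replicate 3. Per kilobase, the ratio of Acta1 to Actc1 was 2.96, 3.02 and 3.07 in the controls and 3.29, 3.20 and 3.34 in cKO. This ratio was higher in all cKO samples than in any control sample, also in cKO replicate 2, where both genes were at their lowest.

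Actb encodes beta-actin, the main actin of the cytoplasm (ENSMUSG00000029580, chromosome 5, 142903115 to 142906754, reverse strand). It had 5676, 5776 and 5691 CPM in the controls and 6607, 6793 and 6370.0 CPM in cKO. All cKO samples were above all controls. The rise was 1.15-fold (log2 ratio 0.21, SE 0.03, adjusted p = 0.000324). It was called with each sample left out, with log2 ratios of 0.18 to 0.23.

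Actg1 encodes gamma-actin, the other cytoplasmic actin (ENSMUSG00000062825, chromosome 11, 120345690 to 120348542, reverse strand). Its CPM were 732, 764 and 764 in the controls and 865, 848 and 809 in cKO. The groups did not overlap, and the log2 ratio was 0.16 (SE 0.03, adjusted p = 0.00381). Within-group spread was of similar size in both groups (SD 18.4 CPM in the controls and 29.0 CPM in cKO). The ratio of Actb to Actg1 per kilobase was 7.53 ± 0.155 in the controls and 7.78 ± 0.192 in cKO (SD, n = 3 each), and its groups overlapped. Of the exonic bases of Actg1, 5.53% overlap the genes Gm23419 and Mir6935 on the same strand.

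Transcription of actin genes is known to depend on serum response factor (SRF), which binds the CArG box. The RefSeq promoter set (build GRCm38.p6, 250 bases before to 50 after a start) held 8 of the 10 members, without Actb and Lmod3, and was searched for this box on both strands. It was found in the promoters of Acta1, Actc1 and Actg1 and in no other member promoter, and in 1.63% of all 32851 promoters. The boxes are shown because these actins did not move together in cKO: each is printed 5′ to 3′ on the gene's strand, with the box in capitals and 10 bases on either side.
Acta1, chr8:123894829-123894858, box 64 bases upstream of the start: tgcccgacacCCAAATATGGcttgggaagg
Actc1, chr2:114052903-114052932, box 38 bases upstream: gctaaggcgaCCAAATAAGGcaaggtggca
Actg1, chr11:120348566-120348595, box 81 bases upstream: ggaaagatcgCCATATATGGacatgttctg
Of these, Actc1 was lower in cKO, Actg1 higher and Acta1 not called. A match is a description of the letters and not evidence of binding.

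Tropomyosin genes each make several isoforms from alternative promoters and exons, which gene counts do not separate. Tpm1 and Tpm2 give the main striated muscle forms and also forms of smooth muscle and non-muscle cells, Tpm3 gives a slow muscle form and cytoplasmic forms, and Tpm4 is mainly cytoplasmic. Tpm1 (ENSMUSG00000032366, chromosome 9, 67022590 to 67049406, reverse strand) had 1361, 1366 and 1389.9 CPM in the controls and 1618, 1538 and 1584 CPM in cKO. Every cKO sample exceeded every control, with a log2 ratio of 0.20 (SE 0.03, adjusted p = 0.000227). Tpm2 (ENSMUSG00000028464, chromosome 4, 43514711 to 43523765, reverse strand) had 2248, 2222 and 2234 CPM in the controls and 2307, 1976 and 2169 CPM in cKO. The groups of Tpm2 overlapped as those of Acta1 did, with cKO replicate 1 above and cKO replicate 2 below, and the log2 ratio was -0.06 (SE 0.04, 95% interval -0.15 to 0.038, adjusted p = 0.473). Without cKO replicate 1 it was -0.11 (adjusted p = 0.0345), and without cKO replicate 2 it was -0.0025 (adjusted p = 0.976). The ratio of Tpm2 to Tpm1 per kilobase was 3.68, 3.63 and 3.58 in the controls and 3.18, 2.86 and 3.05 in cKO, lower in every cKO sample.

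Tpm3 (ENSMUSG00000027940, chromosome 3, 90072649 to 90100902, forward strand) had 237, 245 and 244 CPM in the controls and 268, 291 and 285 CPM in cKO. Tpm4 (ENSMUSG00000031799, chromosome 8, 72134975 to 72153142, forward strand) had 521, 537 and 536 CPM in the controls and 611, 623 and 616 CPM in cKO. Both genes were higher in every cKO sample than in any control. They rose by the same fold, 1.16, with log2 ratios of 0.22 (SE 0.03 and 0.03, adjusted p = 0.000388 for Tpm3 and 8.6e-05 for Tpm4). The ratio of Tpm4 to Tpm3 per kilobase was 6.06 ± 0.00845 in the controls and 6.07 ± 0.199 in cKO (SD, n = 3 each). Of the exonic bases of Tpm4, 6.08% overlap the gene Gm26586 on the opposite strand, and the strand setting of the counting is not given in the sources used here.

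Lmod2, the leiomodin known mainly from heart muscle (ENSMUSG00000029683, chromosome 6, 24597762 to 24605414, forward strand), had 161, 165 and 164 CPM in the controls and 159, 135 and 144 CPM in cKO. The cKO samples were all lower, but cKO replicate 1 lay just under the lowest control. The log2 ratio was -0.16 (SE 0.05, adjusted p = 0.0248). The adjusted p was 0.0937 without control replicate 2, 0.0896 without control replicate 3, 0.0594 without cKO replicate 2 and 0.0848 without cKO replicate 3. Lmod3, the leiomodin of skeletal muscle thin filaments (ENSMUSG00000044086, chromosome 6, 97238534 to 97252759, reverse strand), had 386, 364 and 378 CPM in the controls and 323, 297 and 326 CPM in cKO. Its groups were well separated, and the log2 ratio of -0.25 was the largest fall among the 10 genes (SE 0.04, adjusted p = 0.00022). It was called with each sample left out, with log2 ratios of -0.28 to -0.22.

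**Figure D2:**
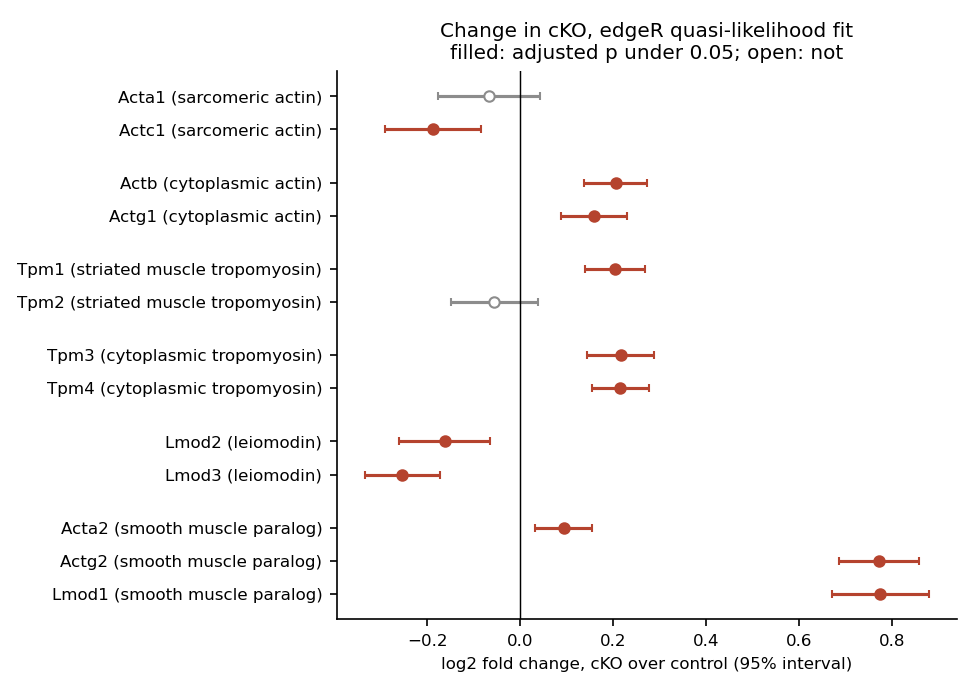
log2 ratio of cKO over control (horizontal axis) with its 95% interval from the edgeR fit for the 10 genes and, at the bottom, the smooth muscle genes Acta2, Actg2 and Lmod1. Filled red points have an adjusted p under 0.05 and open grey points do not, and the cytoplasmic actins, Tpm1, Tpm3 and Tpm4 lie between 0.16 and 0.22 while Lmod3 lies at -0.25.

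The balance of sarcomeric and cytoplasmic genes was described by the ratio of their summed counts per kilobase in each sample, with no test, since it is a score over chosen genes. For actins, the ratio of Acta1 and Actc1 to Actb and Actg1 was 2.23, 2.16 and 2.16 in the controls and 1.94, 1.57 and 1.83 in cKO. All cKO samples were lower, by a mean difference of -0.30 on the log2 scale, and their SD on that scale was 0.158 against 0.027 in control. For tropomyosins, the ratio of Tpm1 and Tpm2 to Tpm3 and Tpm4 was 3.57, 3.43 and 3.47 in the controls and 3.24, 2.77 and 3.03 in cKO. The mean log2 difference was -0.21. Tpm1 rose about as much as Tpm3 and Tpm4 (log2 ratios 0.20, 0.22 and 0.22). The lower ratio thus rests on Tpm2, which was not called (-0.06, edgeR adjusted p = 0.473). With counts not divided by length, the mean log2 differences were -0.30 for actins and -0.17 for tropomyosins. In both families cKO replicate 2 had the lowest ratio. Among 6 actin genes, the smooth muscle actins Acta2 and Actg2 included, Acta1 held 43.7% ± 0.182 of the counts per kilobase in the controls and 41.1% ± 2.16 in cKO (SD, n = 3 each). Actb held 23.5% ± 0.209 and 26.8% ± 1.71, and Actc1 14.5% ± 0.294 and 12.6% ± 0.473. The 10 members together took 1.93% to 1.95% of all counts in the controls and 1.98% to 2.13% in cKO.

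**Figure D3:**
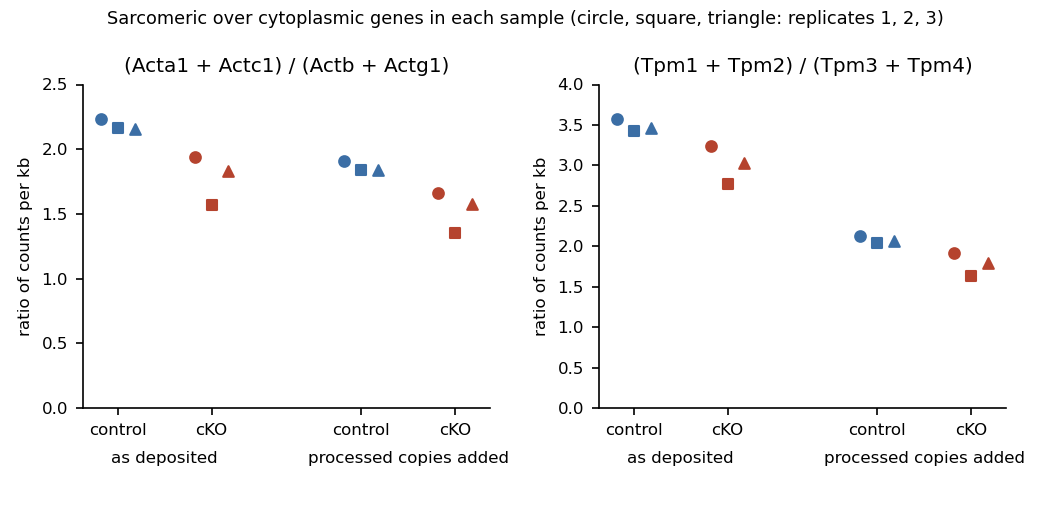
Ratio of counts per kilobase (vertical axes, from 0) of sarcomeric over cytoplasmic actin genes (left) and of Tpm1 and Tpm2 over Tpm3 and Tpm4 (right) in the control (blue) and cKO (red) samples, from the counts as deposited and after the counts of processed copies were added to Actg1, Tpm3 and Tpm4. The red points lie under the blue ones in each of the 4 pairs, and cKO replicate 2 (square) is lowest.

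Some of the muscle members had their extremes in the same samples. For Acta1, Actc1, Tpm2, Lmod2 and Lmod3, cKO replicate 2 was the lowest of all 6 samples, while for Tpm1 it was the lowest of the cKO samples but above all controls. In cKO replicate 1, Acta1, Actc1, Tpm2, Lmod2, Tpm1 and the cytoplasmic Actg1 were at the highest level of the cKO samples. Over the 6 samples, Pearson's r of log2 CPM was 0.992 between Acta1 and Tpm2 and 0.969 between Actc1 and Lmod2, while Lmod3 and Actb had -0.982. It was 0.611 between Acta1 and Lmod3 and 0.642 between Tpm2 and Lmod3. Tpm1 had -0.213 with Acta1, -0.214 with Tpm2 and 0.913 with Actb. These values are descriptions over samples of 2 groups and share the libraries' scaling. The summed CPM of 11 muscle differentiation markers was 17530 to 18210 in the controls and 16300, 14490 and 16150 in cKO replicates 1, 2 and 3, so it was lowest in the same sample. Most of this sum was Myh3, the embryonic myosin heavy chain, with a mean of 10900 CPM in the controls and 9666 CPM in cKO. The sum therefore mainly follows Myh3. Of the 11 markers 9 were lower and 1 higher in cKO, against 6.46% and 9.38% of all genes tested. Without control replicate 1 the number lower was 5. Among the markers Myog, the factor that drives myoblast differentiation, had a log2 ratio of -0.20 (SE 0.03, adjusted p = 0.000626). Myh3 had -0.17 (SE 0.04, adjusted p = 0.00696). The marker that was higher was the cell-cycle inhibitor Cdkn1c (0.46, SE 0.06, adjusted p = 0.00012). Hira itself was lowest in cKO replicate 1, at 3.34 CPM against 4.88 and 4.86 CPM in cKO replicates 2 and 3. The part of the differentiation state or of Hira levels in these differences was not tested.

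Among 7997 other genes with a mean of at least 20 CPM, those whose log2 CPM followed each actin most closely over the 6 samples were named by Pearson's r. For Acta1 they were Htra3 (0.998), the slow troponin Tnni1 (0.996) and Atp5j2 (0.995), none of which was called between groups. For Actc1 they were Tmem161a, Psmd13 and Ldha (0.994 each). For Actb they were Dennd2a (0.997), Syde1 (0.995) and Igfbp7 (0.995), and for Actg1 Ecm1 (0.999), Gm12715 (0.996) and Tcn2 (0.992). Igfbp7, Syde1, Ecm1, Gm12715 and Tcn2 were higher in cKO, with log2 ratios of 0.44, 0.25, 0.31, 0.16 and 0.24.

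Gm12715 is a processed pseudogene of gamma-actin on chromosome 4, and its place in that list bears on how the cytoplasmic genes were counted. Exact 75-base windows, the length of the reads, were searched for in all annotated transcripts. Of the windows of Actg1 transcripts, 29.4% also occur in Gm12715 and 16.4% in Gm8399, and 10 genes share at least one. Tpm3 shares 19.2% of its windows with Tpm3-rs7, a related gene annotated as protein coding, and Tpm4 9.11% with the pseudogene Gm7809. Actb shares 1.48% of its windows with Lrrc58, a protein-coding gene with 12156 to 16440 counts a sample, and the same share with the pseudogene Gm15725, which was at 0 counts. Acta1 and Actb share 3 windows with each other, both share a few with the pseudogene Gm47692, and Actc1, Tpm1, Tpm2, Lmod2 and Lmod3 share none.

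Windows across exon junctions matter here because the aligner does not split reads over introns. For Actg1, 288 of 506 junction windows (56.9%) occur unbroken in another gene, for Tpm4 177 of 500 (35.4%), for Tpm3 431 of 1226 (35.2%), for Actb 40 of 577 (6.93%), and for the other members the number is 0. One junction of each copied gene is shown to make this visible, 5′ to 3′ on the gene's strand, with the end of the upstream exon in lower case and the start of the downstream exon in capitals. In the gene an intron separates both parts, and in the copy they are joined.
Actg1 exons 2 and 3 (chromosome 11, intron of 93 bp after base 120347969, joined in Gm12715): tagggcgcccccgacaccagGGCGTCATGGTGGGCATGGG
Tpm4 exons 5 and 6 (chromosome 8, intron of 529 bp after base 72146527, joined in Gm7809): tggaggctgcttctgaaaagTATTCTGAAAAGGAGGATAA
Tpm3 exons 3 and 4 (chromosome 3, intron of 875 bp after base 90086579, joined in Tpm3-rs7): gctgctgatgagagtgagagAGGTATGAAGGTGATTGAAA

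The copies held many counts. Gm12715 had 35181, 41570 and 39874 counts in the controls and 36060, 44043 and 38644 in cKO, which was 85.4% to 86.7% of the counts of Actg1 in every sample. All pseudogenes that share windows with Actg1 together had 143.6% to 147.2% of its own counts. The counts of Tpm3-rs7 were 88.1% to 90.2% of those of Tpm3, and those of Gm7809 63.6% to 66.4% of those of Tpm4. These shares were nearly the same in the controls and cKO samples. The log2 ratios of the copies were 0.16 for Gm12715, 0.23 for Tpm3-rs7 and 0.25 for Gm7809 (SE 0.04, 0.03 and 0.03, adjusted p = 0.00566, 0.000166 and 3.6e-05). Reads of a gene and of its copies cannot be told apart where the sequence is identical.

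With the counts of the copies added, the log2 ratio was 0.16 for Actg1, 0.22 for Tpm3 and 0.23 for Tpm4 (adjusted p = 0.00648, 0.000235 and 5.8e-05). The levels moved more than the differences. Actg1 alone held 3.13% ± 0.0892 of the counts per kilobase of the 6 actin genes in control and 3.45% ± 0.147 in cKO, and Actg1 with its pseudogenes 7.36% ± 0.221 and 8.06% ± 0.364 (SD, n = 3 each). Which of the pseudogenes' reads came from Actg1 was not tested, and exact windows are shared for 33.5% of Actg1. The ratio of sarcomeric to cytoplasmic actins then was 1.91, 1.84 and 1.84 in the controls and 1.66, 1.35 and 1.57 in cKO, and that of tropomyosins 2.13, 2.04 and 2.06 in the controls and 1.92, 1.63 and 1.79 in cKO. The mean log2 differences between groups were -0.29 and -0.23. Reads over junctions of genes without such copies can be lost and could not be added back, so the ratios are not molar amounts.

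**Figure D4:**
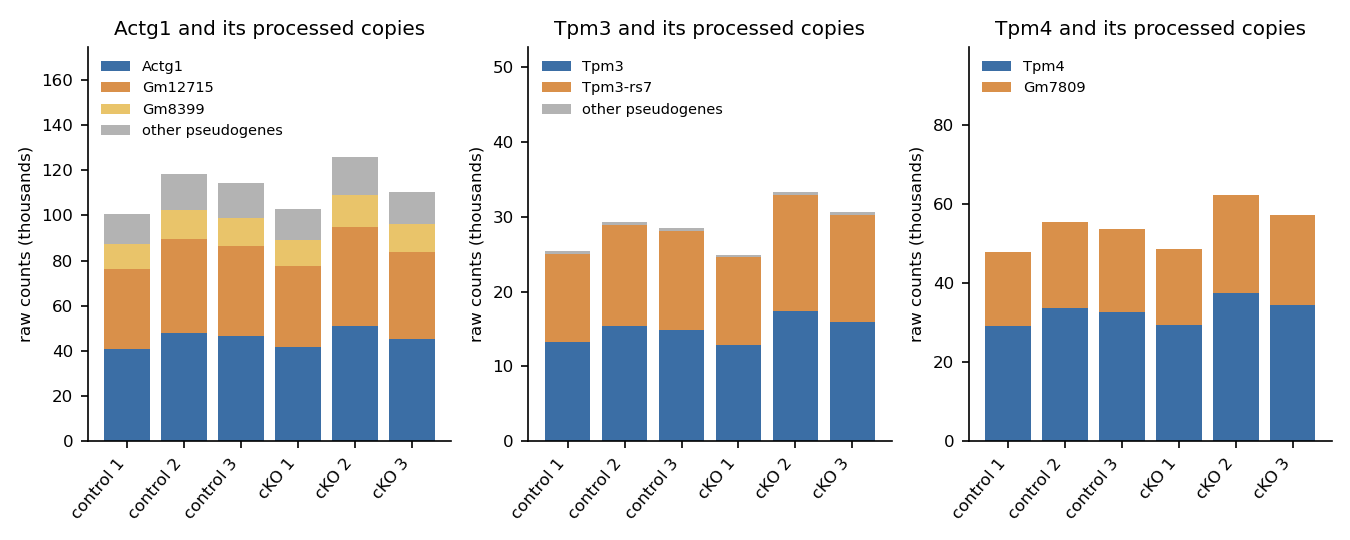
Raw counts (vertical axes, from 0, scaled as the axis title states) of Actg1, Tpm3 and Tpm4 (blue) and of the genes that hold processed copies of them (orange, yellow and grey) in each of the 6 samples. The copies add 143.6% to 147.2% to the counts of Actg1, 90.3% to 92.6% to those of Tpm3 and 63.6% to 66.4% to those of Tpm4, and the shares are alike in the controls and cKO.

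Of 3 smooth muscle relatives of the members, Actg2 and Lmod1 rose in cKO, and Acta2 was called higher by a small margin. Over all genes tested, 9.38% were higher. Acta2, smooth muscle alpha-actin, which cultured myoblasts also express, had 2956 ± 29.3 CPM in the controls and 3155 ± 31.5 CPM in cKO (SD, n = 3 each, log2 ratio 0.09, adjusted p = 0.0358). Its adjusted p was 0.129, 0.118 and 0.139 without control replicate 1, 2 or 3 and 0.0669 without cKO replicate 3. Actg2, the enteric smooth muscle actin, rose 1.71-fold from 33.6 ± 0.619 to 57.4 CPM in cKO, where samples ranged from 54.5 to 59.3 CPM (adjusted p = 5e-09). Lmod1, the smooth muscle leiomodin, rose 1.71-fold from 15.7 ± 0.553 to 26.9 ± 1.17 CPM (adjusted p = 3.2e-08), while Lmod2 and Lmod3 fell.

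Of 17 partners of the sarcomeric thin filament, 5 were lower and 1 was higher in cKO, against 6.46% and 9.38% of all genes tested. Their median log2 ratio was -0.11. Without cKO replicate 1 the number lower was 10, and Tnnt1, the one higher, was not called without control replicate 2 or cKO replicate 3. Cap2 was not called when control replicate 1, 2 or 3 or cKO replicate 2 or 3 was left out (adjusted p from 0.0563 to 0.128) or with scaling by total counts alone (0.0648). Neb, the giant protein that spans the thin filament, had a log2 ratio of -0.33 (SE 0.03, adjusted p = 2.5e-06). Klhl41, a Kelch protein known to stabilise nebulin, had -0.31 (SE 0.04, adjusted p = 3.3e-05), the muscle cofilin Cfl2 -0.17 and Cap2, a cyclase-associated protein of muscle, -0.12. The slow troponin Tnnt1 had a log2 ratio of 0.16 (SE 0.04, adjusted p = 0.00834). Other troponins were not called, and Tnni1 and Tnnc1 had log2 ratios of -0.06 and -0.04.

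The tropomodulins, which cap the pointed end where leiomodins act, went different ways. Tmod1, the sarcomeric tropomodulin, had 23.2 ± 0.119 CPM in the controls and 19.8 ± 1.81 CPM in cKO (SD, n = 3 each, log2 ratio -0.23, adjusted p = 0.0104). Tmod3, the widely expressed one, rose from 56.7 ± 1.23 to 67.1 ± 2.75 CPM (log2 ratio 0.24, adjusted p = 0.000348), and Tmod2, known from neurons, had a log2 ratio of 0.33 (adjusted p = 0.0102, and 0.0608, 0.0534 and 0.0680 without control replicate 2, control replicate 3 or cKO replicate 3). The barbed-end capping genes Capza1, Capza2 and Capzb were not called (0.02, 0.0012 and -0.05), and Capg was higher (0.35, adjusted p = 4.6e-06). Of the 8 genes of this list 3 were higher and 1 lower, against 9.38% and 6.46% of all genes tested. Tmod1 and Tmod4 are also in the list of 17 thin filament partners, so the call of Tmod1 counts in both lists.

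Of 23 genes of cytoplasmic actin turnover, 13 were higher in cKO and 0 lower, with a median log2 ratio of 0.12, while 9.38% of all genes tested were higher. Without control replicate 1, 2 or 3 the number higher was 9. The most abundant of those called were the monomer-binding Pfn1 (0.13, adjusted p = 0.00986), the cofilin cofactor Wdr1 (0.14, adjusted p = 0.00337), thymosin Tmsb4x (0.12, adjusted p = 0.00869) and the severing protein Dstn (0.37, adjusted p = 3.7e-07). Pfn1 was not called without control replicate 1 or 2 (adjusted p = 0.0571 and 0.0537), nor Tmsb4x without control replicate 2 (0.0749). Cfl1, the non-muscle cofilin, was not called (0.03, adjusted p = 0.727). Whether it differed in response from the muscle form Cfl2 was not tested.

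SRF itself was not called (log2 ratio 0.03, SE 0.03, adjusted p = 0.669). Of 6 genes of SRF and its cofactors 2 were higher and 0 lower, namely Mrtfa, the cofactor that is released when monomeric actin runs low, at 29.5 ± 0.877 CPM in the controls and 37.7 ± 3.59 CPM in cKO (SD, n = 3 each, log2 ratio 0.35, adjusted p = 0.000452), and Fhl2 (0.72, adjusted p = 3.6e-09). The related cofactor Mrtfb had a log2 ratio of -0.13 and was not called (SE 0.06, adjusted p = 0.158). Without the filter on low counts or without cKO replicate 2, 1 of the 6 genes was lower. Of 12 genes listed as SRF targets, 8 were higher and 0 lower, with a median of 0.32. The list is cytoskeletal apart from Ccn1 and Ccn2, which encode secreted proteins. Over all genes tested, 9.38% were higher and 6.46% lower. Flna rose from 1589 ± 22.4 to 1792 ± 76.4 CPM, and the log2 ratio was 1.04 for Ccn2, 0.60 for Ccn1 and 0.38 for Actn1 (adjusted p = 2.3e-10, 1.2e-06 and 1.7e-06). Whether SRF activity had a part in these differences was not tested.

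Markers of other cell types were higher in cKO too, and the cytoplasmic actins and tropomyosins are expressed in those cells. Over all genes tested, 9.38% were higher and 6.46% lower. Macrophage markers were higher for 14 of 14 genes, with a summed level of 150.1 to 156 CPM in the controls and 312 to 361 CPM in cKO. Fibroblast markers were higher for 7 of 9 genes tested (1474 to 1562 and 2071 to 2274 CPM), smooth muscle and pericyte markers for 5 of 7 tested with 2 lower (380.2 to 386 and 434 to 486 CPM), and endothelial markers for 5 of 10 (18.3 to 20.8 and 28.4 to 33.6 CPM), which became 2 without control replicate 2, control replicate 3 or cKO replicate 2. Without control replicate 3, 1 smooth muscle and pericyte marker was lower. The fibroblast marker Lum and the pericyte marker Kcnj8 had too few counts to be tested. None of these genes was at 0 in all samples, and Kcnj8 was at or under 3 counts in every sample. In bulk RNA, more cells of a type and more RNA per cell cannot be told apart, and the part of these cells in the rise of the cytoplasmic genes was not tested.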

How the data were processed

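The authors aligned single-end reads of 75 bases, from ribosome-depleted total RNA (400 ng), to mm10 with Bowtie2 2.3.4.2, and deposited raw counts per gene made with featureCounts 1.6.3, for 3 control and 3 cKO samples. The annotation release, strand setting and treatment of multi-mapping reads are not given in the sources used here. The deposited table of normalized counts and the authors' comparison table (base mean, log2 fold change, standard error, Wald statistic, p-values) were not used.

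All 55536 identifiers matched GENCODE M21 (mm10), which gave symbols, positions and exon lengths. edgeR 4.0.16 in R 4.3.3 was run on all 6 samples (filterByExpr, TMM factors, a quasi-likelihood fit of the 2 groups without covariates, adjusted p under 0.05 over 22404 genes) after it was tested on simulated counts. The common biological coefficient of variation was 3.92%. Counts of 7657 or more for every member in every sample make counting error small beside this spread. Replicate pairs differed by more than sampling noise, but not equally. The chi-square per degree of freedom was 2.03 between control replicates 2 and 3 and 5.20 to 9.39 for the other pairs. Alternatives were DESeq2 1.42.0, other scaling, no filter, a replicate block, addition of pseudogene counts and leaving out each sample. Gene lists were written by hand. The members and lists were chosen with earlier results of these data known. Genes named are the members, the called list genes with the highest mean counts (up to 4 a list and direction), the 3 genes closest in pattern to each actin and the copies with most counts. Genes named beyond that rule (Pax7, Cfl1, Srf, Mrtfb, Lum, Kcnj8, Tmod genes and Cap2, Tnni1, Tnnc1, the Capz genes) were chosen after their values were seen. Python 3.11.15 and matplotlib 3.10.9 were used for sums and plots.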

Additional observations from a re-analysis of the deposited data

How the results depend on the processing

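No member changed direction under any of 13 alternatives. Actb, Actg1, Tpm1, Tpm3, Tpm4 and Lmod3 kept their calls in all 13. Actc1 was called in 10 and Lmod2 in 9, and in these 13 both lost calls only where a sample was left out. Acta1 was called without the filter on low counts (log2 fold change -0.07, adjusted p = 0.0255) and without cKO replicate 1, and Tpm2 only without cKO replicate 1. The number of members called lower ranged from 1 to 5 over the fits that each lacked a sample, and was 1 without control replicate 2 or cKO replicate 3 and 5 without cKO replicate 1. The number called higher was 5 throughout. Over all genes 2101 were higher and 1448 lower in cKO, and with each sample left out 1571 to 2214 were higher and 917 to 1673 lower. With scaling by total counts alone 2462 were higher and 1057 lower, which is 70.0% higher of those called in place of 59.2%. DESeq2 called 1603 higher and 1252 lower. The mean log2 differences of the ratios with each sample left out were -0.37 to -0.21 for actins and -0.27 to -0.15 for tropomyosins. Deviations from the group means correlated at -0.05, -0.03 and -0.02 for samples of the same number. With group means of only 3 samples, such values cannot exclude that samples were paired. The paper used a paired t-test for its RT-qPCR of satellite cells. With the replicate number as a block, 1901 genes were higher and 1251 lower, and no member changed its call, while Acta2 lost its call (adjusted p = 0.0771). The addition of Tpm3-rs7 counts was chosen after seeing the data. Of the 6 fits that each lacked a sample, Actc1 kept its call in 3 and Lmod2 in 2. Their log2 ratios there were -0.26 to -0.14 and -0.23 to -0.11. Acta1 and Tpm2 were called, among these fits, only without cKO replicate 1. A fit with fewer samples also has less power, and the cause of these changes was not tested.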
